A study of Arabidopsis thaliana with 8 samples.

Results

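The type-A response regulators are the 10 Arabidopsis thaliana genes ARR3 to ARR9 and ARR15 to ARR17, chosen by their locus identifiers and found among the 33557 genes of each of 3 tables of root transcript levels. All 10 were listed above 0 in every group and were tested in every table, so none was lost to a filter on low values. The tables compare 4 groups of 2 RNA libraries, all from seedlings of the Columbia background that were 7 days old, of which the last 1 cm of the root was taken. The wild type was recorded at 0 µM (Col-ABA) or 100 µM (Col+ABA) abscisic acid, a stress hormone usually shortened to ABA, each for 3 h. Col-ABA is called untreated wild type below. The mutant groups were bin2-1 and bzr1-D/bin2-1, and the labels do not say whether their roots received ABA. BIN2 is a GSK3-like kinase that holds back brassinosteroid signalling, and bin2-1 is a dominant allele whose kinase is hyperactive. BZR1 is a transcription factor that BIN2 inactivates, and bzr1-D is a dominant allele that stabilises it, here in plants that also carry bin2-1. The title of the series concerns how brassinosteroid and ABA signalling oppose each other in the root.

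Cytokinin is sensed by histidine kinase receptors, whose signal passes through phosphotransfer proteins to response regulators in the nucleus. Type-B response regulators are DNA-binding activators, and type-A genes are among their fastest targets. A type-A protein has a receiver domain that accepts phosphate and no DNA-binding domain, and it dampens the pathway that induced it, so that a type-A transcript is widely read as a sign of cytokinin output. In the root tip cytokinin slows the meristem by pushing cells to elongate and differentiate, and it is also needed to specify vascular cell files.

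Each table gives 1 FPKM value per group, a count of fragments divided by transcript length and by library size, so levels can be set side by side between genes. No values per library stand beside them, and therefore no replicate error. All p and q in the text are those of the authors, whose test is not named, and a gene counts as past the threshold at q under 0.05. The smallest q is a floor that many genes share, and it does not rank them. It is 0.000385 with ABA (2612 genes), 0.000188 in bin2-1 (5421 genes) and 0.000451 with bzr1-D (2265 genes). One of the libraries in each group carries the word repeat in its title, and nothing says that it came from separately grown plants, so these p-values speak for these libraries and may cover technical spread alone. The depth of the libraries is unknown. In RNA of whole root tips, fewer cells that express a gene and less RNA per cell cannot be told apart. Of 22 marker genes checked, those of the root stem cell niche, root cap, vascular tissue and root hairs were listed above 0 in every group, with summed levels, each taken in its own table, of 40.7 to 71.7, 22.6 to 57.2, 60.5 to 93.4 and 56.9 to 178 FPKM. The 5 green shoot genes summed to 5.09 to 9.78 FPKM.

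By descent the 10 genes form 5 sister pairs, ARR3 with ARR4, ARR5 with ARR6, ARR7 with ARR15, ARR8 with ARR9, and ARR16 with ARR17. The RefSeq annotation of TAIR10.1 places ARR3 (AT1G59940) at chr1:22065617-22067233 and ARR4 (AT1G10470) at chr1:3441988-3444360, both on the minus strand. ARR5 (AT3G48100) lies at chr3:17758427-17760950 and ARR6 (AT5G62920) at chr5:25252007-25254318, also on the minus strand. ARR7 (AT1G19050) and ARR15 (AT1G74890) lie on the minus strand at chr1:6577833-6579314 and chr1:28131447-28133025. ARR8 (AT2G41310) and ARR9 (AT3G57040) lie on the plus strand at chr2:17221840-17224880 and chr3:21109059-21111567. ARR16 (AT2G40670) and ARR17 (AT3G56380) lie on the plus strand at chr2:16969673-16972113 and chr3:20905264-20906397. The first transcript model of ARR8 has 6 exons and those of the other 9 genes have 5. Their coding regions range from 462 bases in ARR17 to 780 bases in ARR4. Sisters share 70.6% to 78.8% of aligned coding bases, and the 40 other pairs 39.9% to 63.7%. ARR6 overlaps the protein-coding gene AT5G62910 on the opposite strand by 348 bases, and ARR8 and ARR9 overlap long non-coding RNA genes on the opposite strand by 299 and 231 bases. Whether strand was used in counting is not known from the sources used here, and reads of these partners may be counted with the regulator.

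The promoters of 2 sister pairs are printed because the pairs behaved differently in bin2-1 roots: ARR5 and ARR6 rose together, while of ARR16 and ARR17 the second fell. Each is the 250 bases before the annotated gene start in RefSeq TAIR10.1, written in the direction of the gene, with capitals on each match to AGATT or its reverse complement AATCT, a core that type-B regulators bind.
ARR5 promoter, chr3:17760951-17761200, minus strand: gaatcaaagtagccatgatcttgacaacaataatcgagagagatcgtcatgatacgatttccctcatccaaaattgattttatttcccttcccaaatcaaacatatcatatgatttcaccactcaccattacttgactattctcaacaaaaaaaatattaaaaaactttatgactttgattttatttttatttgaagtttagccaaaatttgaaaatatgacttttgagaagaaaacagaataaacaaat
ARR6 promoter, chr5:25254319-25254568, minus strand: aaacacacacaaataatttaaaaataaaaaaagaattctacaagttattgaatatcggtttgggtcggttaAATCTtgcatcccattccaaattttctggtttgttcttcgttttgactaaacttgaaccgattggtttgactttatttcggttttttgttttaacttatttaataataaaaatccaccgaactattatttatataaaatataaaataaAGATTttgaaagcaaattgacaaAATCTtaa
ARR16 promoter, chr2:16969423-16969672, plus strand: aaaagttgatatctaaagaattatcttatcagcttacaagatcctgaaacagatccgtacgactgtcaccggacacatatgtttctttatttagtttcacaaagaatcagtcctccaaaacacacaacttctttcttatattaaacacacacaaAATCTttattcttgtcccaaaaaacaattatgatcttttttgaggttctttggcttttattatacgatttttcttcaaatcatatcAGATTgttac
ARR17 promoter, chr3:20905014-20905263, plus strand: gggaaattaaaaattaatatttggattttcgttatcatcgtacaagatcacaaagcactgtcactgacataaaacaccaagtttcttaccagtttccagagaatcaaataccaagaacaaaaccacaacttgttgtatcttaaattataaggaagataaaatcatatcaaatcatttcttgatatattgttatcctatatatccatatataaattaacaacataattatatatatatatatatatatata
The AGATT core had 3 matches in the ARR6 window and 2 in that of ARR16, and the windows of ARR5 and ARR17 held none. Over the family 7 of 10 windows held at least 1 match on either strand, against 63.7% of the 27443 windows of protein-coding genes. The ABRE core ACGTG, which ABA-responsive factors bind, was found in 1 of 10 windows, that of ARR9, against 22.9% of all windows. E-boxes (CANNTG), which can overlap ACGTG, were found in 8 of 10 windows against 55.3%, and the brassinosteroid response elements CGTGTG and CGTGCG in 0 of 10, against 5.37% and 1.57%. A match is a string of letters and not a binding site, and its absence from 250 bases says nothing of the rest of the gene.

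In untreated wild-type roots the family was expressed at modest levels that differed widely between members. In the bin2-1 table ARR8 was highest at 15.6 FPKM, followed by ARR4 at 13.5, ARR3 at 8.64 and ARR9 at 7.46 FPKM. ARR17, ARR5 and ARR7 followed at 4.55, 3.96 and 3.50 FPKM, and ARR15, ARR6 and ARR16 were lowest at 1.89, 1.12 and 0.480 FPKM. With 1 value per group it cannot be said which neighbours in this order differ beyond their spread. ARR8 made up 25.7% of the summed level of the family and ARR4 22.2%.

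**Figure D1:**
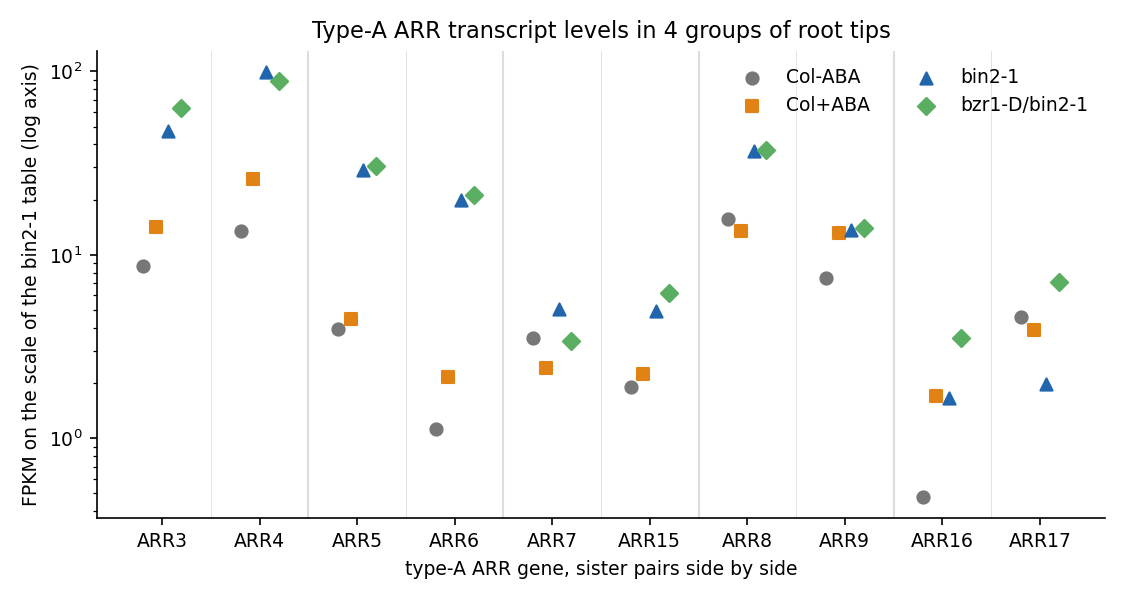
FPKM of each type-A ARR gene (x axis, sister pairs side by side) in the 4 groups, 1 point per group and no error since the tables give 1 value each, on a log axis and on the scale of the bin2-1 table. Wild-type values lie far below both mutants for ARR3, ARR4, ARR5 and ARR6, and bin2-1 is the lowest group only for ARR17, at 1.98 FPKM.

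Most of the type-A family rose in bin2-1 roots. At q under 0.05, 7 of 10 members were higher than in untreated wild type and 1 was lower, where 25.4% of the 20404 genes tested were higher and 25.6% lower. The median log2 fold change of the members was 1.58, against -0.01 for all genes tested. ARR3, ARR4, ARR5 and ARR6 rose at least 4-fold, as did 3.32% of all genes tested. The summed level of the 10 genes was 4.28 times higher, at 260.1 against 60.8 FPKM.

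ARR6, a member long used as a reporter of cytokinin response, went from 1.12 FPKM in wild type to 20.0 FPKM in bin2-1, a 17.8-fold rise by the authors' deposited table (log2 fold change 4.15, q = 0.000188). With a pseudocount of 1 FPKM its log2 fold change was 3.30. Without one, the change ranked 105 of the 19078 tested genes that reached 1 FPKM. The overlapping gene AT5G62910 moved the other way by the authors' deposited table, from 15.2 to 9.52 FPKM (log2 fold change -0.68, q = 0.000188). The sister of ARR6, ARR5, whose promoter is a standard marker of cytokinin output in the root tip, rose 7.36-fold, from 3.96 to 29.1 FPKM, by the authors' deposited table (q = 0.000188). ARR6 thus stood below ARR5 in both groups, and the log2 fold changes of the sisters differed by 1.27.

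ARR4, which binds phytochrome B and ties cytokinin to light signalling, had 13.5 FPKM in wild type and 99.3 FPKM in bin2-1, a 7.35-fold rise by the authors' deposited table (q = 0.000188). It became the most abundant member, with 38.2% of the summed level. ARR3, which acts with ARR4 on the circadian clock, rose 5.52-fold, from 8.64 to 47.6 FPKM, by the authors' deposited table (q = 0.000188). ARR3, ARR4, ARR5 and ARR6 together held 44.8% of the summed level in wild type and 75.4% in bin2-1.

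The ARR8 and ARR9 pair, repressors of cytokinin response in roots, also rose. ARR8 had 15.6 and 36.8 FPKM, a 2.35-fold rise, and ARR9 had 7.46 and 13.6 FPKM, a 1.83-fold rise, by the authors' deposited table (q = 0.000188 for each). ARR8 was the highest member in wild type and the third in bin2-1.

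In the pair ARR7 and ARR15, which are repressed by WUSCHEL in the shoot meristem and induced by auxin in the embryonic root, 1 sister passed. ARR15 rose 2.59-fold, from 1.89 to 4.91 FPKM, by the authors' deposited table (q = 0.00341). ARR7 had 3.50 FPKM in wild type and 5.09 in bin2-1 by the authors' deposited table (log2 fold change 0.54, p = 0.0398, q = 0.0734). A test of the difference between these sisters was not possible from group values.

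ARR16 and ARR17, short members that are little more than a receiver domain, had log2 fold changes of opposite sign. ARR17 was the 1 member that fell in bin2-1, from 4.55 to 1.98 FPKM by the authors' deposited table, 2.30-fold (log2 fold change -1.20, q = 0.0353). ARR16 had 0.480 FPKM in wild type and 1.65 in bin2-1 by the authors' deposited table (log2 fold change 1.78, or 0.84 with a pseudocount of 1 FPKM, q = 0.0831). At q under 0.01 the call of ARR17 was lost and 0 members were lower, against 20.2% of all genes tested.

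**Figure D2:**
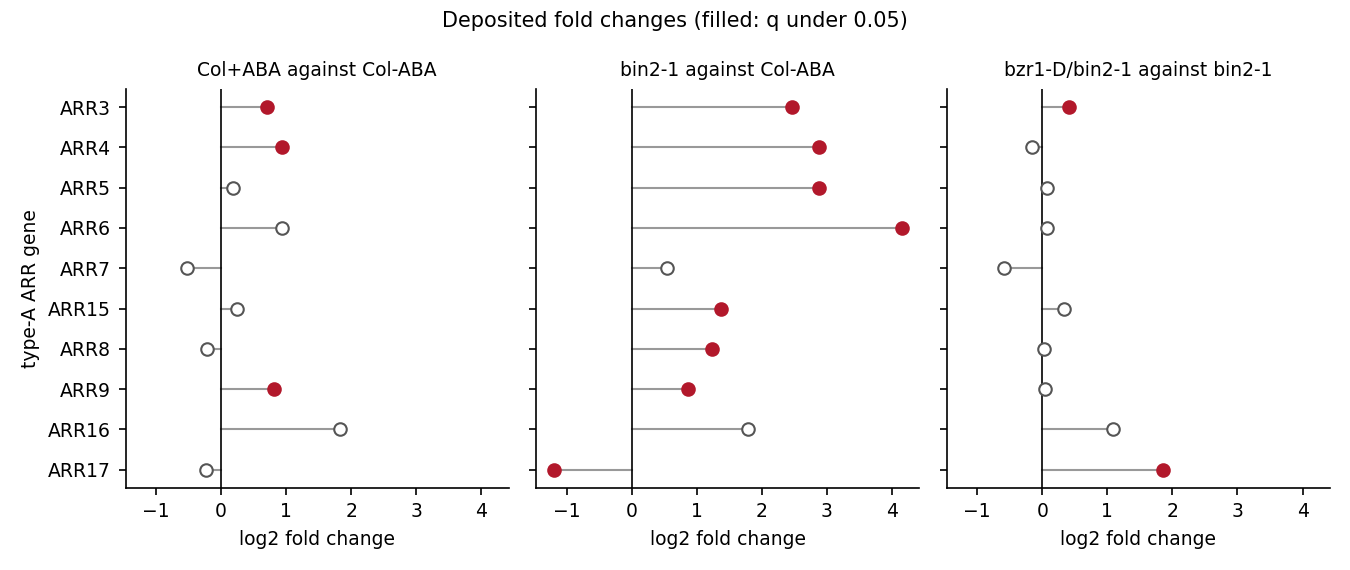
Log2 fold change of each type-A ARR gene (y axis) in the 3 deposited comparisons, with filled points at q under 0.05 and open points otherwise. In bin2-1 against Col-ABA 7 points are filled to the right and 1, ARR17, to the left, while in bzr1-D/bin2-1 against bin2-1 most lie near 0.

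ABA raised ARR3, ARR4 and ARR9, each by less than 2-fold. At q under 0.05, 3 of 10 members rose in wild-type roots treated for 3 h and 0 fell, where 15.1% of the 20126 genes tested were higher and 9.51% lower. At an unadjusted p under 0.05, 5 members were higher and 0 lower, against 3834 and 2807 of the 20126 genes tested. With a minimum of 2-fold, 0 members counted as higher, against 7.83% of all genes tested. The median log2 fold change was 0.48 over the members and 0.01 over all genes tested. The summed level was 57.0 FPKM without ABA and 78.4 FPKM with it.

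ARR4 went from 12.7 to 24.3 FPKM with ABA, a 1.92-fold rise by the authors' deposited table (q = 0.000385), and took the first place in the family from ARR8. ARR9 rose 1.75-fold, from 7.00 to 12.3 FPKM, by the authors' deposited table (q = 0.000385). ARR3 rose 1.64-fold, from 8.10 to 13.3 FPKM, by the authors' deposited table (q = 0.00291). The ABA and bin2-1 comparisons share the untreated wild-type libraries, so the values of a gene in both are not independent.

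ARR6 had the same ratio as ARR4, 1.92, from 1.06 to 2.02 FPKM, and just missed the threshold by the authors' deposited table (q = 0.0557). ARR16 had a ratio of 3.55 with ABA, at 0.451 and 1.60 FPKM by the authors' deposited table (log2 fold change 1.83, p = 0.0440, q = 0.137). With a pseudocount of 1 FPKM that log2 fold change was 0.84, below the 0.89 of ARR4. ARR5 had 3.71 FPKM without ABA and 4.20 FPKM with it by the authors' deposited table (log2 fold change 0.18, q = 0.659). The other 4 members, ARR7, ARR8, ARR15 and ARR17, had log2 fold changes from -0.53 to 0.25 and q from 0.234 to 0.776 by the authors' deposited table. Within pairs, ARR9 passed at 0.81 while its sister ARR8 had -0.22, at 14.7 and 12.6 FPKM (q = 0.391 by the authors' deposited table). The difference between sisters was not tested.

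Of the type-A genes, ARR3 and ARR17 differed past the threshold between bzr1-D/bin2-1 and bin2-1 roots. At q under 0.05, 2 of 10 members were higher in bzr1-D/bin2-1 than in bin2-1 and 0 were lower, where 11.9% of the 20410 genes tested were higher and 12.8% lower. At an unadjusted p under 0.05, 3 members were higher and 1 was lower, against 3329 and 3575 of the 20410 genes tested. At q under 0.01, and also with a minimum of 2-fold, ARR17 alone counted as higher, against 8.36% and 4.10% of all genes tested. The median log2 fold change was 0.07 over the members and -0.01 over all genes tested, and the summed level was 271 FPKM in bin2-1 and 287 FPKM in bzr1-D/bin2-1.

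ARR17, the member that was low in bin2-1, rose 3.60-fold by the authors' deposited table, from 2.06 to 7.42 FPKM (log2 fold change 1.85, q = 0.00526). Since its fall and its rise are both measured on the same bin2-1 libraries, a low bin2-1 value alone would give both. The change with bzr1-D ranked 246 of the 19076 tested genes that reached 1 FPKM. ARR3 rose 1.33-fold, from 49.7 to 65.9 FPKM, by the authors' deposited table (q = 0.0205). ARR16 had 1.72 FPKM in bin2-1 and 3.66 FPKM in bzr1-D/bin2-1 by the authors' deposited table (log2 fold change 1.09, q = 0.0607).

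Of the other members that rose most in bin2-1, ARR4 had 104 and 92.5 FPKM (log2 fold change -0.16, q = 0.437), ARR5 30.4 and 31.8 FPKM (0.07, q = 0.809) and ARR6 20.8 and 22.0 FPKM (0.08, q = 0.776) by the authors' deposited table. ARR8 had 38.4 and 39.0 FPKM and ARR9 14.2 and 14.6 FPKM by the authors' deposited table (q = 0.939 and 0.895). A q above the threshold does not show that these levels are equal. ARR15 and ARR7 had log2 fold changes of 0.34 (q = 0.385) and -0.59 (q = 0.0804) by the authors' deposited table, ARR7 falling short of the threshold at 5.31 and 3.53 FPKM.

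No deposited table sets bzr1-D/bin2-1 against wild type, so the log2 fold changes of the 2 tables were added, with no test. The sum was 4.23 for ARR6, 2.95 for ARR5, 2.87 for ARR3 and ARR16 each, and 2.72 for ARR4. It was 1.71 for ARR15, 1.26 for ARR8 and 0.91 for ARR9. For ARR17 and ARR7 it was 0.65 and -0.05. With a pseudocount of 1 FPKM the sum was 3.38 for ARR6 and 1.62 for ARR16. By this measure 7 of 10 members stood at least 2-fold above wild type in the double mutant, against 10.7% of the 19911 genes tested in both tables, and the median was 2.21 against -0.02. Both steps share the bin2-1 libraries, whose error enters the sum.

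**Figure D3:**
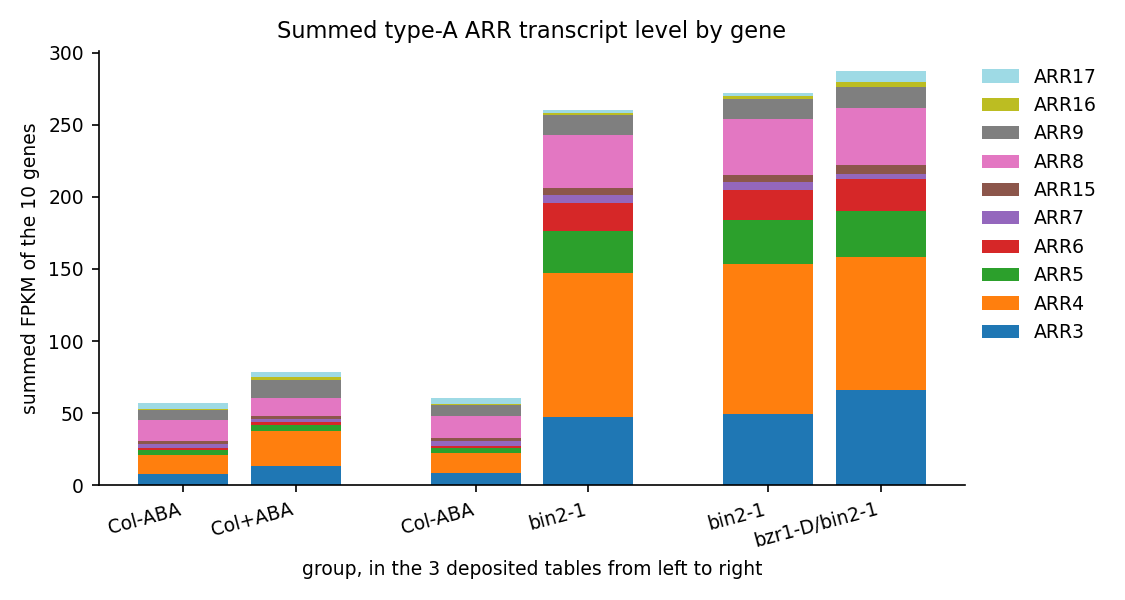
Summed FPKM of the 10 type-A ARR genes in each group (y axis), stacked by gene, with the 2 groups of each deposited table side by side and no error since each is 1 value. The bin2-1 and bzr1-D/bin2-1 bars reach 260.1 to 287 FPKM and the wild-type bars 57.0 to 78.4 FPKM.

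Of the 67 genes in 10 other cytokinin lists, 54 were tested in bin2-1, where 18 rose and 16 fell. Of all genes tested, 25.4% and 25.6% did so, somewhat smaller shares in both directions. Counts within these lists are small and are read against the same shares, which were 15.1% higher and 9.51% lower with ABA and 11.9% and 12.8% with bzr1-D. Among the 3 receptors in bin2-1, AHK4, the main receptor of the root vasculature, rose 2.06-fold, from 8.26 to 17.0 FPKM, by the authors' deposited table (q = 0.000188). AHK2 and AHK3 fell 2.15-fold and 1.34-fold by the authors' deposited table (q = 0.000188 and 0.00974). Of the phosphotransfer proteins, which carry phosphate from the receptors to the nucleus, 1 of 5 tested members rose and 2 fell in bin2-1. AHP1 rose from 112 to 293 FPKM by the authors' deposited table (q = 0.000188), and AHP3 and AHP2 fell by 0.47 and 0.44 on the log2 scale (q = 0.00490 and 0.0151). AHP6, a pseudo-phosphotransfer protein that inhibits the pathway, had 4.15 and 4.44 FPKM by the authors' deposited table and did not pass (q = 0.801).

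Among the type-B activators 1 of 6 tested members rose in bin2-1 and 2 fell, near the shares of all genes tested (25.4% and 25.6%), and the median of their log2 fold changes was 0.09. ARR1, a main activator in the root meristem, fell from 89.8 to 42.2 FPKM, 2.13-fold by the authors' deposited table (q = 0.000188). ARR11 fell by 0.61 on the log2 scale, and ARR10 rose by 0.39, as given by the authors' deposited table (q = 0.000828 and 0.0210). With ABA 2 of 5 tested type-B genes rose, ARR11 from 8.42 to 18.1 and ARR2 from 12.2 to 21.7 FPKM by the authors' deposited table (q = 0.000385 for each), and 0 fell. At an unadjusted p under 0.05 also 0 of 5 fell, against 2807 of the 20126 genes tested. With bzr1-D 0 of 6 passed in either direction, where 11.9% of all genes tested were higher and 12.8% lower. Of these 6, 0 had an unadjusted p under 0.05, where 3329 of the 20410 genes tested were higher and 3575 lower. ARR13, ARR19 and ARR21, and the type-C regulators ARR22 and ARR24, were listed at 0 in every group.

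The 4 KMD genes, which encode F-box proteins that target type-B regulators for degradation, all fell in bin2-1, and the median of their log2 fold changes was -3.28. KMD3 fell from 109 to 7.62 FPKM and KMD1 from 99.0 to 7.64 FPKM, 14.3-fold and 13.0-fold by the authors' deposited table (q = 0.000188 for each). KMD4 and KMD2 fell 7.28-fold and 5.04-fold by the authors' deposited table (q = 0.000188 for each). With bzr1-D all 4 rose against bin2-1, KMD3 8.22-fold to 65.3 FPKM and KMD1 3.74-fold to 29.8 FPKM by the authors' deposited table (q = 0.000451 for each). The fall in bin2-1 and the rise with bzr1-D both rest on the same bin2-1 libraries. With ABA KMD1 and KMD2 fell and KMD4 and KMD3 rose, with log2 fold changes of -0.98, -0.70, 1.58 and 0.44 by the authors' deposited table (q = 0.000385, 0.000385, 0.000385 and 0.0350).

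**Figure D4:**
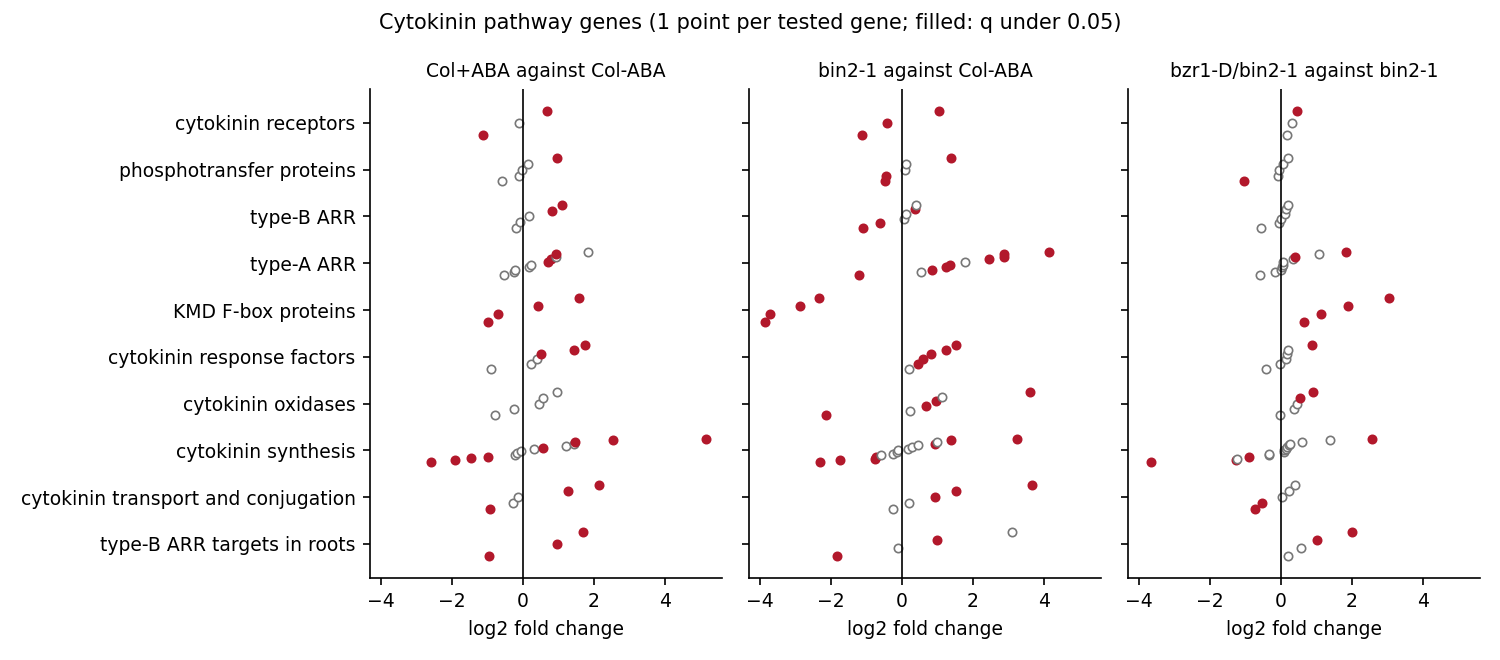
Log2 fold change (x axis) of each tested gene in the cytokinin lists (y axis, 1 point per gene, spread vertically only for sight) in the 3 deposited comparisons, filled at q under 0.05. In bin2-1 the 4 KMD genes lie at -3.84 to -2.33 and the type-A genes at -1.20 to 4.15, with a single one below 0.

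Other genes that respond to cytokinin were also read. Of the cytokinin response factors, AP2/ERF transcription factors some of which cytokinin induces, 5 of 6 rose in bin2-1 and 0 fell. Among all genes tested 25.4% rose and 25.6% fell. At an unadjusted p under 0.05 also 0 of 6 fell, against 5734 of the 20404 genes tested. CRF1 and CRF3 rose most, with log2 fold changes of 1.52 and 1.25 by the authors' deposited table (q = 0.00896 and 0.000188). With ABA 3 of 6 rose and 0 fell, where 15.1% and 9.51% of all genes tested did so. CRF6 rose most with ABA, from 7.37 to 25.2 FPKM by the authors' deposited table (q = 0.000385). Of the cytokinin oxidases, which break cytokinin down, 3 of 6 tested members rose in bin2-1 and 1 fell: CKX3 went from 0.391 to 4.80 FPKM and CKX4 from 1.04 to 0.235 FPKM by the authors' deposited table (q = 0.000188 and 0.000978). Of 4 genes known as type-B targets in roots, EXPA1, an expansin, rose in bin2-1 to 25.0 from 12.5 FPKM, and IAA3, also called SHY2, a repressor of auxin response, fell from 4.75 to 1.34 FPKM by the authors' deposited table (q = 0.000188 for each).

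On the supply side, 3 of 15 tested synthesis genes rose in bin2-1 and 4 fell, near the 25.4% and 25.6% of all genes tested. IPT7, an isopentenyltransferase of the first step, went from 0.413 to 3.89 FPKM, and with bzr1-D from 4.06 to 0.322 FPKM, by the authors' deposited tables (log2 fold changes 3.24 and -3.66, q = 0.000188 and 0.000451), both set against the same bin2-1 libraries. With ABA 4 of 14 rose and 4 fell, where 15.1% and 9.51% of all genes tested did so, led by LOG5, an enzyme of the activating step, at 5.16, and CYP735A2, which makes trans-zeatin forms, at -2.58 by the authors' deposited table (q = 0.000385 for each). In the list of transport and conjugation 3 of 5 rose in bin2-1 and 0 fell. At an unadjusted p under 0.05 also 0 of 5 fell, against 5734 of the 20404 genes tested. UGT85A1, a cytokinin glucosyltransferase, went from 2.17 to 27.4 FPKM, and ABCG14, an exporter that loads cytokinin for transport to the shoot, from 27.7 to 79.4 FPKM by the authors' deposited table (q = 0.000188 for each).

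Some cell type markers also moved in bin2-1, where 25.4% of all genes tested rose and 25.6% fell. The 3 root hair markers rose, from a summed 62.3 to 171 FPKM, and of the 5 stem cell niche genes 2 rose, from a summed 49.1 to 64.1 FPKM. Of the 4 root cap markers 2 rose and 2 fell (31.2 and 34.7 FPKM summed), and of the 5 vascular markers 1 rose and 1 fell (64.5 and 61.2 FPKM). Of the 5 green shoot markers 1 rose (5.54 and 9.29 FPKM summed). With ABA the vascular markers summed to 60.5 and 93.4 FPKM, 2 of 5 rising and 1 falling, against 15.1% and 9.51% of all genes tested. SUC2 carried the change in the sum, going from 33.9 to 69.7 FPKM. With bzr1-D the root cap markers summed to 36.2 and 57.2 FPKM, 2 of 4 rising and 0 falling, against 11.9% and 12.8% of all genes tested. At an unadjusted p under 0.05 also 0 of these root cap markers fell, against 3575 of the 20410 genes tested. No marker gene was at 0 in any group, and the part of these cell types in the type-A levels was not tested.

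Outside the family, the genes whose log2 fold changes in the 3 comparisons lay nearest to the medians of the 10 members (0.48, 1.58 and 0.07) were NPC6, NHL2, AT1G48330, ZIP11 and PGDH. Their Euclidean distances were 0.0688 to 0.118 among 17175 genes with at least 1 FPKM in every group value. NPC6, a phospholipase C, had log2 fold changes of 0.47, 1.52 and 0.04 by the authors' deposited tables. By the authors' deposited tables all 5 passed in bin2-1 (q = 0.000188), and PGDH, an enzyme of serine synthesis, was the 1 of them that passed with ABA (q = 0.0313). The 5 genes were picked by these fold changes, so their passing in bin2-1 comes with the choice and is no separate result.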

How the data were processed

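RNA from root tips was made into TruSeq libraries, 6 to a pool, and sequenced on a HiSeq2000, per the labels' protocols. Seedlings grew at 22 °C under 16 h light and 8 h dark. TopHat and Cufflinks were run on the reads, and the build was TAIR10, as the submitters' processing notes have it; the sources used here give no versions, annotation or test. The authors deposited 3 tables with 1 value per group, read as FPKM because Cufflinks is named. The fold ratio, the p-value and the q-value were used as the authors deposited them, and the smallest p is 5e-05. No library values were analysed here, so no model was fitted. A group found in 2 tables differs by a near-constant factor (1.07 for wild type, 0.959 for bin2-1), so tests stay within a table, and levels on 1 scale used these medians.

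Log2 fold changes are those of the deposited ratios, with no pseudocount. Genes with p below 1 count as tested, and an adjustment recomputed over them called the same numbers of genes. It was tested on simulated data, as were the motif and identity steps. All members are named; of other lists, genes past the threshold, at most 4 per list and comparison, largest change first; and the 5 genes nearest to the members' medians. Exceptions are AT5G62910, AHP6 and the regulators at 0, named after their values were seen. Members and lists were chosen with earlier results of these data known. Sequences come from RefSeq TAIR10.1, whose table holds all 10 loci. Python 3.11.15, pandas 2.3.3 and Biopython 1.88 were used. The alternatives tried were a stricter q (under 0.01), at least 2-fold change, centring, a recomputed adjustment, leaving out genes under 1 FPKM, pseudocounts of 0.1 and 1 FPKM, and a rescaling of the tables.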

Additional observations from a re-analysis of the deposited data

How the results depend on the processing

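Of 210 member values of the 3 deposited comparisons under the alternatives, 203 kept their direction and their side of the threshold, 7 kept only the direction and 0 changed sign. Much of this was fixed in advance. A pseudocount cannot change the sign, and the changes of threshold or adjustment keep the deposited fold change. Under centring and the pseudocounts the calls were those of the deposited q. The numbers are therefore no measure of how stable the values are. With a minimum of 2-fold, 0 members counted as higher with ABA, 7.83% of all genes doing so, since ARR3, ARR4 and ARR9 changed by less. In bin2-1 6 did, without ARR9 (log2 fold change 0.87). The share of all genes there was not computed, and it is at most the 25.4% that were higher without the minimum. With bzr1-D 1 member, ARR17, did, against 4.10% of all genes tested. At q under 0.01, 0 members were lower in bin2-1 and 1 was higher with bzr1-D, against 20.2% and 8.36% of all genes tested. The median log2 fold change came to 0.36 with ABA under a pseudocount of 1 FPKM, to 1.46 and 1.11 in bin2-1 under pseudocounts of 0.1 and 1 FPKM, and to 1.47 for the double mutant against wild type under 1 FPKM. A pseudocount shrinks the change of low genes by construction: under 1 FPKM, ARR16 went from 1.83 to 0.84 with ABA, from 1.78 to 0.84 in bin2-1 and from 2.87 to 1.62 in the double mutant against wild type, and ARR6 from 4.15 to 3.30 in bin2-1 and from 4.23 to 3.38 in the double mutant. In the other cytokinin lists the minimum of 2-fold left 10 higher and 4 lower of 50 tested with ABA (17 and 9 without it). It left 10 and 10 of 54 in bin2-1 (18 and 16), and 6 and 3 of 53 with bzr1-D (11 and 6). Among all genes tested 7.83% were higher at this minimum with ABA and 4.10% with bzr1-D. The other shares at this minimum were not computed, so those counts have nothing to be read against. Centring on the median, a recomputed adjustment and the filter at 1 FPKM left the counts of type-A members in the 3 deposited comparisons as they were, and were not run for the other lists. Centring used the deposited calls, and the recomputed adjustment called the same numbers of genes as the deposited one, so neither is a separate check. The rescaling, run only for the double mutant against wild type, left the median at 2.21, as it had to, because the factor between the tables is near-constant. No paired analysis was possible because the tables hold 1 value per group, and leaving out each replicate was not run for the same reason. The depth is unknown, so the precision of low members such as ARR16 cannot be read from the tables.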
